A study of Rattus norvegicus with 6 samples.

Results

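The miRNAs described here are those that mark blood vessels and connective tissue, counted in small RNA libraries from the lens capsules of rat pups. They were taken by a rule on names: every rat entry of miR-126a, miR-126b, miR-143, miR-145, miR-199a, and miR-214, with both arms of each precursor. The rule found 11 of the 910 names in the count table, 3 of miR-126, 4 of miR-143 and miR-145, and 4 of miR-199a and miR-214. Of these, 9 were counted and all 9 had enough reads to be tested, whereas rno-miR-126b and rno-miR-214-5p were at 0 in each of the 6 libraries. A count of 0 allows a level of up to 1.04 to 1.94 CPM (counts scaled to a common library size, after TMM as below) in the control libraries and 2.72 to 4.36 CPM in the Na2SeO3 libraries, which covers counting error only.

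Sprague Dawley pups (8 days old when taken into the study, per the study's methods) were injected under the skin of the neck on days 3, 5, and 7. The methods count day 15 from the start of the experiment and do not say from when the injection days are counted, so the age at lens collection is uncertain. The 3 control libraries, labelled WT1 to WT3, came from pups given saline. The 3 Na2SeO3 libraries, labelled Model1 to Model3, came from pups given sodium selenite at 20 μmol/kg, which clouds the lens. Lenses were taken on day 15, and the RNA came from the capsular membrane, 1 rat per library. No genetic change is given for either group. The labels number the libraries but do not name litters or batches.

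A miRNA precursor is a short hairpin whose stems yield a 5p and a 3p product, and usually one of these arms is far more abundant than the other. miR-126 is the classic endothelial miRNA and lies inside Egfl7, a gene of vascular endothelium. It is known for keeping vessels intact and for strengthening the response of endothelial cells to vascular growth factors. miR-143 and miR-145 are neighbours made in smooth muscle cells and pericytes, the mural cells of vessels, where they favour the contractile state. miR-199a and miR-214 are made in fibroblasts and other mesenchymal cells. The adult lens has no vessels, but in rodent pups a vascular coat, the tunica vasculosa lentis, still surrounds it and regresses after birth. Because the libraries are bulk samples, fewer cells of a type cannot be told apart from less of the RNA per cell, and the cell that made a read was not observed.

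All 11 names were matched to a mature sequence in RefSeq (assembly GRCr8). They are 17 to 23 bases long and hold 11 different seeds, the bases 2 to 8 by which a miRNA recognizes its targets. None of these seeds occurs in another of the 693 rat mature names of that table, so no other listed miRNA shares its seed with a member. The sequences are shown because the results below turn on which arm was counted. Each runs from 5′ to 3′, with the seed in capitals.
rno-miR-126a-3p: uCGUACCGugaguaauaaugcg
rno-miR-126a-5p: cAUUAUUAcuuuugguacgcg
rno-miR-126b: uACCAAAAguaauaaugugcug
rno-miR-143-3p: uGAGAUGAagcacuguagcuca
rno-miR-143-5p: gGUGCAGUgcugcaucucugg
rno-miR-145-5p: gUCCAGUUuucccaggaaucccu
rno-miR-145-3p: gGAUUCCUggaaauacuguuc
rno-miR-199a-3p: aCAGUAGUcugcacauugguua
rno-miR-199a-5p: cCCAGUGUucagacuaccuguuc
rno-miR-214-3p: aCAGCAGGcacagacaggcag
rno-miR-214-5p: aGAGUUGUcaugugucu

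In GRCr8, both arms of miR-126a lie on the plus strand inside Egfl7. The uncounted rno-miR-126b lies on the opposite strand of the same site, where 17 of its bases are the reverse complement of rno-miR-126a-5p. RefSeq lists the miR-126a arms under the symbol Mir126b, with Mir126a as a synonym. Mir143 and Mir145 are neighbours inside the long non-coding RNA gene Carmn, a smooth muscle transcript. Mir199a2 and Mir214 are neighbours inside Dnm3, which encodes a dynamin. No coordinates are given, because the sources used here do not name the genome build behind the count table.

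The counts summed to between 1806596 and 2829903 in the control libraries and between 663096 and 968151 in the Na2SeO3 libraries. The counted reads made up 25.6% to 39.7% of the raw reads that the study lists in the control libraries and 11.4% to 13.03% in the Na2SeO3 libraries, so the groups also differ in how much of a library was counted. In a principal component analysis of the 341 names tested, the first component (54.8% of the variance) separated the groups. The second (24.0%) set Na2SeO3 library 1, at -8.93, and Na2SeO3 library 3, at 6.90, at opposite ends. The other libraries lay at -1.18 to 1.60. The lens and surface epithelium list, led by rno-miR-184 with 70.0% of its level, was present in every library, at 100996 to 116253 CPM in the control group and 51363 to 63727 CPM in the Na2SeO3 group. The sensory and retinal list (miR-96, miR-182, and miR-183) reached 144772 to 195573 CPM and 186176 to 195578 CPM, and the part of these lists in the results below was not tested.

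Levels are given as CPM after TMM scaling, a method that sets library sizes so that most names do not change. The 9 counted members spanned a wide range of levels, and their order was nearly the same in each library. Adaptors join some small RNAs more readily than others, so the order is one of counted reads. In the control group rno-miR-143-3p stood first of the 9 in 3 of 3 libraries and rno-miR-126a-3p second, at 8th and 12th place among all names. In the Na2SeO3 group rno-miR-126a-3p stood first in 3 of 3 libraries, at 9th place among all names, and rno-miR-143-3p second, at 13th. rno-miR-199a-3p came next in 6 of 6 libraries, and rno-miR-214-3p was the lowest of the 9 in 6 of 6. Lower down, rno-miR-145-5p was above rno-miR-199a-5p in the 3 control libraries, but in the Na2SeO3 group these neighbours were at 391 to 453 CPM and 392 to 437 CPM and did not differ beyond their spread.

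**Figure D1:**
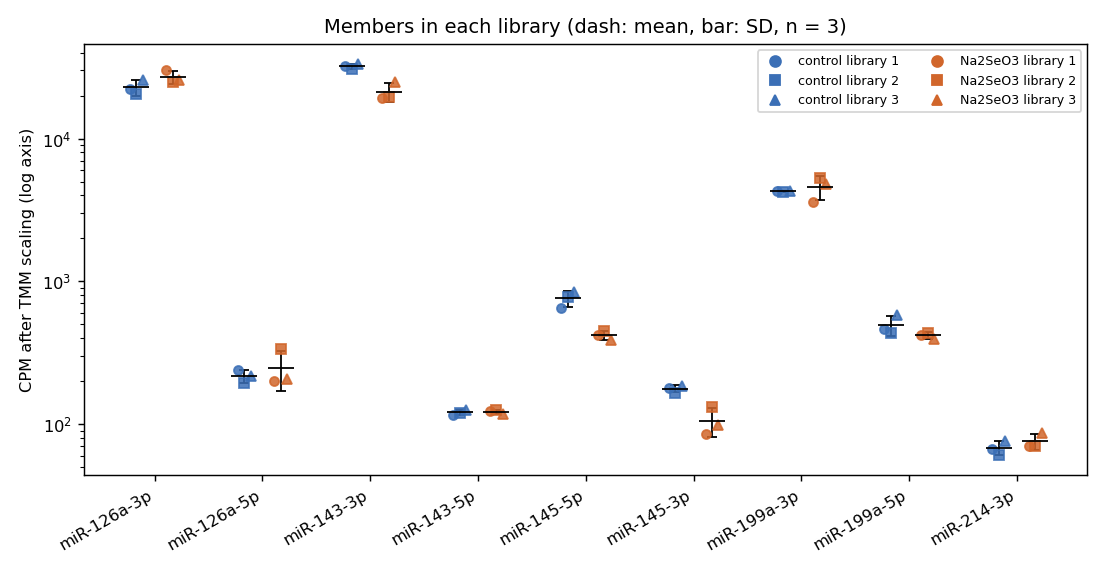
Level of each of the 9 counted members in CPM after TMM scaling (vertical axis, logarithmic), by member along the horizontal axis. Points are single libraries of the control and Na2SeO3 groups, dashes are means, and bars are SD (n = 3). The groups separate for miR-143-3p, miR-145-5p, and miR-145-3p and overlap for the other 6 members.

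The comparison of the Na2SeO3 group with the control group asks which of these miRNAs differ in the cataract model. 3 of the 9 members, rno-miR-143-3p and both arms of miR-145, were lower in the Na2SeO3 group, with an adjusted p-value below 0.05 (quasi-likelihood test of edgeR, adjusted by Benjamini and Hochberg's method over all 341 names tested). No member rose. Of all names tested, 34.6% passed in either direction, 13.8% as falls and 20.8% as rises. The groups did not overlap for the same 3 members, against 46.3% of all names, of which 25.2% were higher and 21.1% lower in the Na2SeO3 group. None of the 9 also passed the absolute log2 fold change of 1 that the study requires of a DEmiRNA, against 16.4% of all names (11.4% up and 4.99% down). DESeq2 likewise called 0 of the 9 under both thresholds and 3 with the adjusted p alone, and 3 of the 9 had an unadjusted p under 0.05 in edgeR, against 44.3% of all names. The median log2 fold change was 0.02 over the 9 members and 0.08 over all names tested. 4 of the 9 had a negative log2 fold change, as did 45.2% of all names.

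rno-miR-143-3p, the most abundant mural miRNA in these libraries, was counted 92973, 59201, and 51873 times in control libraries 1 to 3 and 13244, 21473, and 22618 times in Na2SeO3 libraries 1 to 3. Scaled, these were 32088, 30593, and 33539.5 CPM in the control group and 19268, 19476.5, and 24856 CPM in the Na2SeO3 group. Every Na2SeO3 library lay below every control library. The control mean was 32073 ± 1473 CPM and the Na2SeO3 mean 21200.1 ± 3168 CPM (SD, n = 3 each). On the log2 scale the difference was -0.60 with an SE of 0.14 (adjusted p = 0.0060, edgeR), a 1.51-fold fall. Its adjusted p was at most 0.0420 when single libraries were removed.

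rno-miR-145-5p is known for promoting the differentiation of smooth muscle cells. It stood at 653, 782, and 842 CPM in control libraries 1 to 3 and at 418, 453, and 391 CPM in Na2SeO3 libraries 1 to 3, again without overlap. This was the largest fall among the 9 members, with -0.85 on the log2 scale (95% interval -1.20 to -0.50, adjusted p = 0.0015, edgeR), or 1.80-fold. Its group means were 759 ± 96.8 and 420.5 ± 30.8 CPM (SD, n = 3 each).

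rno-miR-145-3p, the less abundant arm of the same precursor, was at 179, 166, and 186 CPM in the control group and at 85.8, 132, and 98.9 CPM in the Na2SeO3 group. The highest Na2SeO3 library was still below the lowest control library. On the log2 scale the difference was -0.73 with an SE of 0.19 (adjusted p = 0.0101, edgeR). This call was lost without control library 1 (adjusted p = 0.0523), without control library 3 (adjusted p = 0.0531), and with library totals in place of TMM (adjusted p = 0.0613, edgeR). The log2 fold changes were then -0.73, -0.70, and -0.53, in the same order.

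rno-miR-143-5p did not move with the other arm of its precursor. It was at 116, 119.9, and 126.1 CPM in control libraries 1 to 3 and at 124, 125, and 118 CPM in Na2SeO3 libraries 1 to 3. All 6 values lay within a narrow band in which the groups overlapped. The log2 fold change was 0.02 (95% interval -0.34 to 0.38, adjusted p = 0.935, edgeR), and its sign depended on the scaling, from 0.21 with library totals to -0.07 with upper-quartile scaling and -1.13 with raw reads as library sizes. These scalings move all names together, and relative to the median of all names it was at -0.06 with TMM and at -0.05, -0.05, and -0.06 with these 3. Between 85 and 138 reads per Na2SeO3 library lay behind these values, and for the lowest, 85, the exact Poisson interval is 67.9 to 105.

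**Figure D2:**
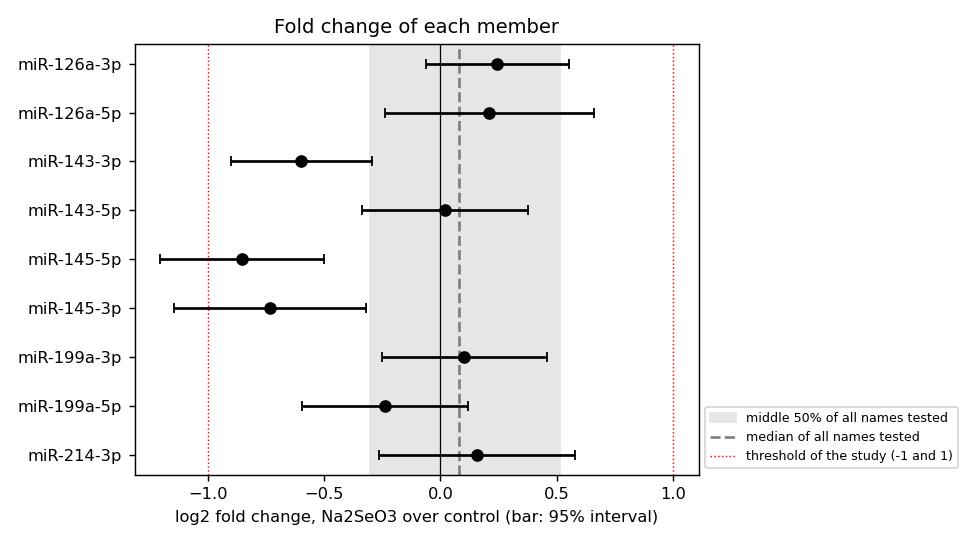
Log2 fold change of the Na2SeO3 group over the control group (horizontal axis) for each of the 9 counted members, with its 95% interval. The grey band holds the middle of all 341 names tested, the dashed line is their median of 0.08, and the dotted lines mark the fold change threshold of the study; miR-143-3p (-0.60), miR-145-3p (-0.73), and miR-145-5p (-0.85) are the members whose interval lies below 0.

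The endothelial members did not pass the test. rno-miR-126a-3p, the arm that carried 98.7% to 99.3% of the reads of its precursor, was at 22231, 20374, and 25832 CPM in control libraries 1 to 3. In Na2SeO3 libraries 1 to 3 it was at 30290.2, 24843, and 25906 CPM. The highest control library lay above Na2SeO3 library 2, so the groups overlapped. Its log2 fold change was 0.24 (95% interval -0.06 to 0.55, adjusted p = 0.216, edgeR), and 0.13 without Na2SeO3 library 1. With library totals in place of TMM it was 0.44 and passed (adjusted p = 0.0168, edgeR), a scale on which the median of all names moved from 0.08 to 0.27.

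rno-miR-126a-5p was at 238, 194, and 216 CPM in control libraries 1 to 3 and at 201, 337, and 208 CPM in Na2SeO3 libraries 1 to 3. Na2SeO3 library 2 was high and the other Na2SeO3 libraries lay within the range of the control group. The log2 fold change of 0.21 (95% interval -0.24 to 0.66, adjusted p = 0.479, edgeR) turned to -0.08 without that library.

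Other miRNAs often named for endothelium were taken from a list of 15 names, of which 8 were tested. 5 of these 8 fell, with log2 fold changes from -1.80 to -0.51, against 13.8% of all names, and none passed as a rise. rno-miR-10b-5p stood at 535 ± 128 CPM in the control group and 234 ± 35.004 CPM in the Na2SeO3 group (SD, n = 3 each), and its log2 difference was -1.20 (adjusted p = 6.58e-04, edgeR). rno-miR-10a-5p, rno-miR-222-3p, rno-miR-221-3p, and rno-miR-139-5p were the others that fell. rno-miR-92a-3p went the other way, with every Na2SeO3 library above every control library, but did not pass (log2 fold change 0.34, adjusted p = 0.116, edgeR). In the list of other mesenchymal and smooth muscle miRNAs, 1 of 10 tested names fell, a share near the 13.8% of all names, and none rose. This was rno-miR-21-5p, which is widely made in fibroblasts, whose log2 difference was -0.52 (adjusted p = 0.0137, edgeR).

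The fibroblast members did not pass the test either. rno-miR-199a-3p was at 4314, 4211, and 4282 CPM in control libraries 1 to 3, the smallest spread of the 9 members in that group on the log2 scale. In Na2SeO3 libraries 1 to 3 it was at 3614, 5331, and 4806 CPM, on both sides of the control values. The log2 fold change was 0.10 (95% interval -0.25 to 0.46, adjusted p = 0.686, edgeR), and without Na2SeO3 library 2 it was -0.02.

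rno-miR-199a-5p, the other arm, was at 464, 434, and 582 CPM in control libraries 1 to 3 and at 423, 437, and 392 CPM in Na2SeO3 libraries 1 to 3. Na2SeO3 library 2 lay just above control library 2, and the log2 fold change was -0.24 (95% interval -0.60 to 0.12, adjusted p = 0.302, edgeR), or -0.10 without control library 3. rno-miR-214-3p, which shares its genomic neighbourhood with miR-199a, was at 67.3, 61.0, and 76.3 CPM and at 69.8, 70.7, and 86.8 CPM in the same order. Its groups overlapped, with a log2 fold change of 0.16 (95% interval -0.26 to 0.58, adjusted p = 0.584, edgeR), or 0.04 without Na2SeO3 library 3. It rested on 48 to 195 reads per library, and for the lowest count the exact Poisson interval is 35.4 to 63.6.

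Summed over all members, the share of a library's counts was 5.70% ± 0.44 in the control group and 5.79% ± 0.13 in the Na2SeO3 group (SD, n = 3 each; two-sided exact permutation test, p = 0.8). Within this share no group of names passed a test. The miR-126 names took 2.30%, 1.92%, and 2.23% of the counts in control libraries 1 to 3 and 3.16%, 2.87%, and 2.71% in Na2SeO3 libraries 1 to 3. For Na2SeO3 library 1, the shallowest, the exact (Clopper-Pearson) 95% interval of the miR-126 share was 3.12% to 3.20%, which covers counting error and not the spread between animals. The miR-143 and miR-145 names took 3.38%, 2.95%, and 2.97% and then 2.06%, 2.30%, and 2.64% in the same order. Neither pair of groups overlapped (exact permutation test, p = 0.1 for each, the smallest p that 3 libraries against 3 allow, and adjusted p = 0.15 over 3 sums). Shares of counts are on the scale of library totals, where the median log2 fold change of all names was itself 0.27, against 0.08 with TMM. As a share of raw reads in place of counts, the miR-126 names were lower in the Na2SeO3 group, a difference of -0.312 percentage points. For the miR-199a and miR-214 names the means were 0.453% ± 0.039 and 0.546% ± 0.120 (SD, n = 3 each), with overlap (exact permutation test, p = 0.3).

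**Figure D3:**
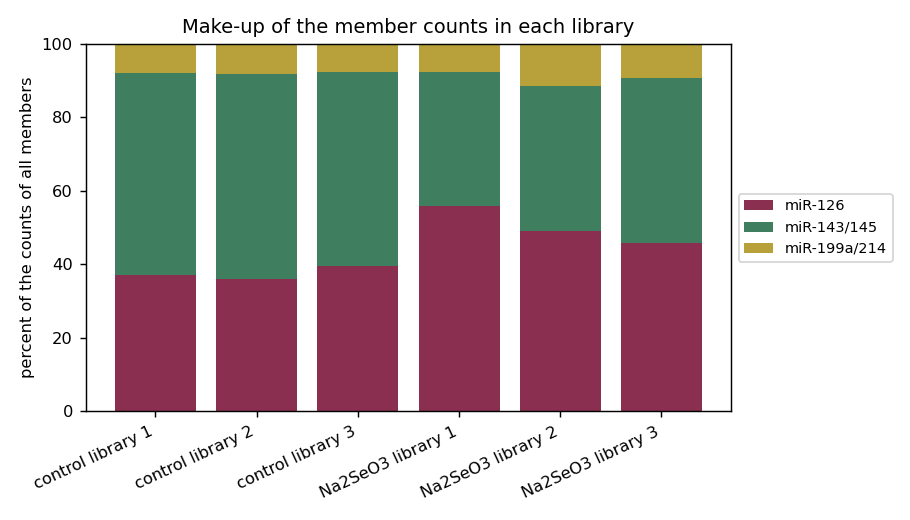
Percent of the counts of all members (vertical axis) taken by the names of miR-126, of miR-143 and miR-145, and of miR-199a and miR-214 in each library (horizontal axis). The miR-143 and miR-145 names took 52.8% to 55.6% in the control libraries and 36.5% to 44.8% in the Na2SeO3 libraries, where the miR-126 names took 45.9% to 56.0%.

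A ratio of 2 counts from the same library does not depend on how libraries are scaled, so 8 such ratios were tested (exact permutation over libraries, two-sided). None passed after adjustment, and the groups did not overlap for 2 of the 8. One of these was the ratio of the most abundant miR-126 and miR-143 arms. There were 0.693, 0.666, and 0.770 reads of rno-miR-126a-3p per read of rno-miR-143-3p in control libraries 1 to 3. In Na2SeO3 libraries 1 to 3 there were 1.57, 1.28, and 1.04. Every Na2SeO3 library was above 1 and every control library below it, a 1.81-fold difference (exact permutation test, p = 0.1, the smallest possible, adjusted p = 0.4 over 8 ratios). When single libraries were removed, the log2 difference of 0.85 ranged from 0.703 to 0.999.

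The other was the ratio of rno-miR-143-3p to the fibroblast miRNA rno-miR-199a-3p. There were 7.44, 7.27, and 7.83 reads of rno-miR-143-3p per read of rno-miR-199a-3p in control libraries 1 to 3 and 5.33, 3.65, and 5.17 in Na2SeO3 libraries 1 to 3 (exact permutation test, p = 0.1, adjusted p = 0.4). The ratio of rno-miR-126a-3p to rno-miR-199a-3p had a mean of 5.32 in the control group and 5.95 in the Na2SeO3 group, with overlap (geometric means; exact permutation test, p = 0.7). Between the neighbours miR-143-3p and miR-145-5p the means were 42.4 and 50.1, and between miR-214-3p and miR-199a-3p they were 0.0160 and 0.0168, both with overlap (exact permutation tests, p = 0.3 and p = 0.7).

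**Figure D4:**
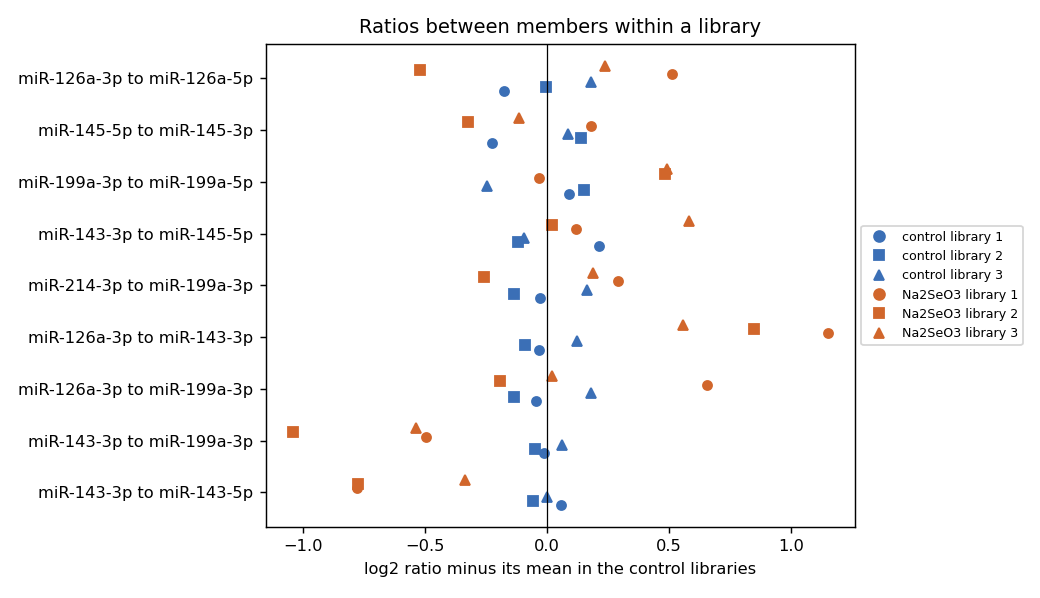
Log2 ratio between pairs of members within a library, minus its mean in the control libraries (horizontal axis), for 9 pairs. Each point is 1 library of the control or Na2SeO3 group; the groups are apart for miR-126a-3p to miR-143-3p, miR-143-3p to miR-199a-3p, and miR-143-3p to miR-143-5p.

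The arms of a precursor come from the same transcript, so their ratio sets the products of 1 gene against each other. For miR-126a there were 105 reads of the 3p arm per read of the 5p arm in the control group and 111 in the Na2SeO3 group (geometric means; exact permutation test, p = 0.9). Na2SeO3 library 2 had the lowest of these ratios, 73.5, and Na2SeO3 library 1 the highest, 150.3. For miR-145 the 5p arm outnumbered the 3p arm by 4.27 and 4.02 (p = 0.7, exact permutation test), and for miR-199a the 3p arm outnumbered the 5p arm by 8.72 and 10.8 (p = 0.3, exact permutation test). None of these 3 arm ratios separated the groups.

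For the arms of miR-143 the groups did not overlap, in a comparison chosen after the values of both arms had been seen. The precursor is shown with its 5p arm (first) and its 3p arm (second) in capitals, from RefSeq (GRCr8, minus strand).
Mir143: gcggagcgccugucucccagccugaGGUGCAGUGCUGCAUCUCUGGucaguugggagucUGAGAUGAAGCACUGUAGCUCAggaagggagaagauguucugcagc

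There were 276, 255, and 265 reads of the 3p arm per read of the 5p arm in control libraries 1 to 3 and 155, 155, and 210.4 in Na2SeO3 libraries 1 to 3. Each Na2SeO3 library was below each control library (exact permutation test, p = 0.1, the smallest possible, and p = 0.2 without any 1 of the control libraries). Counting error alone gave Na2SeO3 library 3 an interval of 175 to 258, which overlapped that of control library 2, 224 to 292. In both groups the 3p arm made up more than 99% of the reads of the precursor, at 99.61% to 99.64% in the control group and 99.36% to 99.53% in the Na2SeO3 group.

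The names outside the rule with the most similar course over the 6 libraries were found by the root mean square distance between log2 CPM values, each centred on its own mean. Among 317 rat names, the nearest to rno-miR-126a-3p were rno-miR-181b-5p, rno-miR-872-5p, and rno-miR-194-5p, at distances of 0.10 each, where the median name was at 0.36. The nearest to rno-miR-143-3p were rno-miR-1843b-5p, rno-miR-1843a-5p, and rno-miR-101a-3p, at 0.08 each (median 0.45), with log2 fold changes of -0.58, -0.58, and -0.56. The counts of rno-miR-1843a-5p and rno-miR-1843b-5p were nearly identical, so how reads were divided between them is uncertain. The nearest to rno-miR-199a-3p were rno-miR-9a-3p, rno-miR-379-3p, and rno-miR-124-5p, at 0.08 to 0.09 (median 0.37). Among the members, the nearest was rno-miR-145-5p for rno-miR-143-3p (0.24), rno-miR-214-3p for rno-miR-126a-3p (0.16), and rno-miR-143-5p for rno-miR-199a-3p (0.18), so none of the 3 lay nearest to the other arm of its precursor.

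Lists of miRNAs from other cell types are read beside the 20.8% of all names tested that rose and the 13.8% that fell. In the lens and surface epithelium list 8 of 13 tested names fell and none rose: rno-miR-184, rno-miR-200a-3p, rno-miR-200a-5p, rno-miR-200b-3p, rno-miR-200c-3p, rno-miR-203a-3p, rno-miR-205, and rno-miR-429. In the striated muscle list 4 of 7 rose and none passed as a fall. Those that rose were rno-miR-1-3p, rno-miR-133a-3p, rno-miR-133b-3p, and rno-miR-206-3p, the last with the largest log2 fold change of the 4, 1.75 (adjusted p = 3.48e-05, edgeR). rno-miR-499-5p was lower without overlap, from a mean of 760 to 540 CPM, but did not pass (log2 fold change -0.49, adjusted p = 0.0680, edgeR). The list, led by rno-miR-1b, had a summed level of 17644 to 22431 CPM in the control group and 26961 to 31613 CPM in the Na2SeO3 group. For blood, 1 of 3 erythroid names rose, rno-miR-486, and 0 of 6 leukocyte names passed the test in edgeR. The summed erythroid level was 254 to 306 CPM and 403 to 518 CPM, of which rno-miR-486 rose from a mean of 137 to 299.5 CPM (adjusted p = 0.0015, edgeR). rno-miR-451-5p, the main red cell miRNA, had means of 128 and 133 CPM (log2 fold change 0.06, adjusted p = 0.833, edgeR). The summed leukocyte level, mostly rno-miR-146a-5p, was 980 to 1170.3 CPM in the control group and 842 to 1026 CPM in the Na2SeO3 group. In the neural and glial list 2 of 8 rose, the abundant rno-miR-9a-5p (log2 fold change 0.43, adjusted p = 0.0478, edgeR) and the glial rno-miR-219a-2-3p. The latter went from a mean of 4.12 to 78.4 CPM, 4.26 on the log2 scale (adjusted p = 2.04e-06, edgeR). rno-miR-219a-5p had only 0 to 1 reads per library. The glial rno-miR-338-3p was lower without overlap, from a mean of 24.9 to 12.4 CPM, but did not pass (log2 fold change -0.93, adjusted p = 0.0519, edgeR). In the sensory and retinal list, led by rno-miR-182, 0 of 4 passed. 5 of the 16 striated muscle names and 1 of the 5 erythroid names, rno-miR-451-3p, were at 0 throughout. So were 1 of the 19 lens and surface epithelium names, rno-miR-203b-5p, and 1 of the 15 other endothelial names, rno-miR-92a-2-5p. The part of these lists in the results of the 9 members was not tested.

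The falls of rno-miR-143-3p and of both arms of miR-145 kept their sign under each scaling tried, as did the negative value of rno-miR-199a-5p, but the direction of the other 5 members depended on the scale. Per raw read listed by the study, all 9 members were lower in the Na2SeO3 group and all 9 passed the adjusted p (edgeR), while the median log2 fold change of all names moved from 0.08 to -1.07. On that scale 91.5% of all names were lower and 61.0% were lower and passed. Relative to that median, rno-miR-126a-3p was at 0.15, rno-miR-199a-3p at 0.02, rno-miR-143-3p at -0.70, rno-miR-145-3p at -0.81, and rno-miR-145-5p at -0.90. With TMM the same differences from the median were 0.16, 0.02, -0.68, -0.81, and -0.93.

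**Figure D5:**
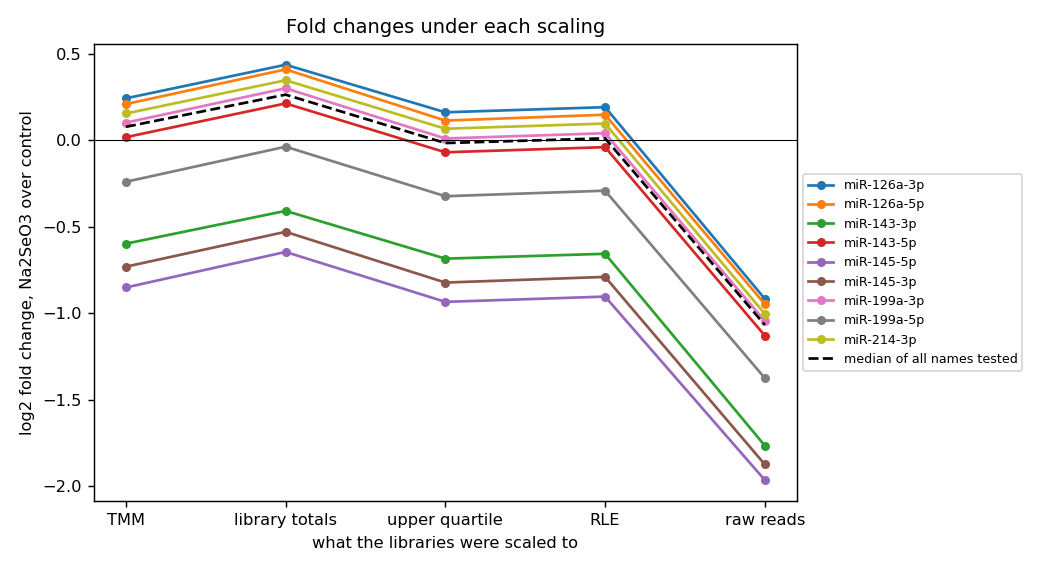
Log2 fold change of the Na2SeO3 group over the control group (vertical axis) for the 9 counted members under 5 ways of scaling the libraries (horizontal axis). The dashed line is the median of all 341 names tested; with raw reads it lies at -1.07 and all members are below 0, while their distances from it change little.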

How the data were processed

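Small RNA from the lens capsules of 3 control and 3 Na2SeO3 rat pups was analysed, with the groups taken from the sample names. Before deposit, the authors removed adaptors and poor bases (Cutadapt, Fqtrim), inspected read quality (FastQC), compared them with the Ensembl rat genome (miRDeep and HISAT2 are named), and deposited read counts per miRNA name, without normalization or pooling. Versions and the genome build are not given in the sources used here. The function filterByExpr (minimum count 10) kept 341 names for testing, and libraries were scaled with TMM. The groups were compared with edgeR 4.0.16 (R 4.3.3, limma 3.58.1), and DESeq2 1.42.0 was an alternative. SE is the size of the log2 fold change over the square root of F. Normalized levels are CPM on the TMM-scaled library sizes, and a prior count of 2 entered log2 CPM. Ratios used a pseudocount of 0.5. The depth, 663096 to 2829903 counts, limits the precision of the lowest members. The reads carry no molecular identifiers. The exact Poisson and Clopper-Pearson intervals, of counts and of shares, and the intervals of the arm ratio cover counting error only. The intervals of the log2 fold changes rest on the SE from edgeR, so they also include the spread between animals. p-values rest on the spread between 3 animals per group, which edgeR estimates with information shared over the names tested. The lowest chi-square of any pair of libraries was 28.0 times its degrees of freedom, and all 6 were kept as separate libraries.

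The members, the marker lists, and the tests were chosen with earlier results of these data known. All members by the name rule are described, besides the nearest names by distance and the called or leading names of each list. Other names, and the arm ratio of miR-143, were chosen after their values were seen. The procedure was tested on simulated data. The alternatives changed the scaling, the filter, the test, or the threshold, added a replicate block, or removed single libraries. The mRNA libraries are not analysed here.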

Additional observations from a re-analysis of the deposited data

How the results depend on the processing

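With raw reads as library sizes, 182 names in place of 56 were DEmiRNAs, among them 7 members in place of 0, and 9 members in place of 3 passed the adjusted p alone. With the adjusted p alone as the call, 118 names and 3 members passed. The split of all DEmiRNAs was 39 up and 17 down with TMM, 53 and 10 with library totals, 32 and 22 with upper-quartile scaling, and 6 and 176 with raw reads. Without 1 library each, 45 to 62 names were DEmiRNAs, no member was, and 2 or 3 members passed the adjusted p.

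With raw reads as library sizes the sign turned for rno-miR-126a-3p (-0.92), rno-miR-126a-5p (-0.95), rno-miR-143-5p (-1.13), rno-miR-199a-3p (-1.04), and rno-miR-214-3p (-1.003). The share of raw reads taken by the miR-126 names differed by -0.312 percentage points and that of the miR-199a and miR-214 names by -0.0737, where the shares of counts differed by 0.762 and 0.0936. rno-miR-143-5p was also negative with upper-quartile scaling (-0.068), RLE (-0.0386), no filter (-0.061), DESeq2 (-0.0390), and rat names only (-0.010). With each library left out it ranged from -0.017 to 0.051, rno-miR-126a-5p from -0.084 to 0.32, and rno-miR-199a-3p from -0.021 to 0.22. The log2 ratio differences that changed sign with a library left out ranged from -0.14 to 0.38 for the arms of miR-126a, -0.22 to 0.032 for those of miR-145, -0.035 to 0.24 for miR-214-3p to miR-199a-3p, and -0.086 to 0.34 for miR-126a-3p to miR-199a-3p. Of 135 recomputed log2 fold changes of members, 14 changed sign. Raw reads, upper-quartile scaling, and RLE (also within DESeq2) move all names together, by -1.15, -0.09, and -0.07 in the median. The cause of the sign changes under other settings was not tested. All 45 of rno-miR-143-3p and the arms of miR-145 were negative.

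Control and Na2SeO3 libraries alike are numbered 1 to 3 but come from different animals, and deviations of same-numbered libraries correlated at -0.17, -0.18, and -0.26 over 341 names, so the numbers do not pair them. With the replicate block, 49 names were DEmiRNAs, 0 members were, and 3 members passed the adjusted p. With the 10 most abundant names out of the total but the members kept in, the difference in share was 1.71 percentage points for the miR-126 names, -2.90 for the miR-143 and miR-145 names, and 0.167 for the miR-199a and miR-214 names, on a smaller total.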
